A study of Mus musculus with 6 samples.

Results

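Fatty acid and triglyceride synthesis was followed through 41 genes, from the export of citrate out of mitochondria to the coats of lipid droplets, in a mouse kidney tubule cell line with and without YOD1 overexpression. The genes were chosen by symbol, and all 41 were found among the 28789 genes of the deposited expression table. The cells were TCMK1, a line of mouse renal tubular epithelial cells. All 6 libraries came from cells treated with angiotensin II (Ang II), so no library shows these cells without it. The genotype was control in 3 libraries and YOD1 overexpression in 3, where YOD1 is a deubiquitinase of the OTU family. For the promoter and vector, an empty vector in the controls, and the dose and time of Ang II, nothing is given in the sources used here. Nor do the labels state that each library had its own culture, and p-values therefore cover the spread of these libraries alone, possibly a technical one. In bulk libraries, fewer cells of a kind and less RNA per cell cannot be told apart.

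Fatty acids are built in the cytosol from citrate. The citrate is cleaved to acetyl-CoA, carboxylated to malonyl-CoA, and joined into palmitate with reducing power from NADPH. Palmitate is then elongated, desaturated, activated with coenzyme A, and esterified stepwise to glycerol until triglyceride is stored in lipid droplets. The transcription factor SREBP1, encoded by Srebf1, drives most enzymes of the first steps, and its close relative SREBP2 drives cholesterol synthesis. Both are held in the endoplasmic reticulum by INSIG proteins when sterols are plentiful. Kidney tubule cells rely mainly on the oxidation of fatty acids for energy, and lipid stored in them is a known feature of kidney injury.

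Levels are in FPKM, a fragment count scaled by transcript length and library size, which corrects for length and allows genes to be compared. Fold changes are differences of log2(FPKM + 1) between the group means, with negative values where the YOD1 libraries were lower, and this scale understates the change of low genes. They were tested with limma over the 11483 genes that reached 1 FPKM in 3 or more libraries, with a two-sided test and Benjamini-Hochberg adjustment at 0.05. Of the 41 genes, 40 entered the test, and Mlxipl, at 0.196 to 0.406 FPKM, did not. Over all tested genes 55 were called (0.479%), 51 higher (0.444%) and 4 lower (0.0348%).

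Yod1 itself was at 0.842, 0.757 and 0.684 FPKM in the controls and at 1.73, 7.56 and 1.86 FPKM in the YOD1 libraries. The groups did not overlap, and YOD1 library 2 stood far above the other two (fold change 1.21, SE 0.37, limma adjusted p = 0.141). Of 12 markers of tubular epithelium, 11 were found and 9 tested, with summed levels of 670.4 to 785 FPKM in the controls and 757 to 991 FPKM in the YOD1 libraries. Most of that sum was Krt18. By gene, 6 of the 9 had a fold change below 0, with a median of -0.18. Pax8 (means 37.1 and 26.8 FPKM) and Cdh16 (71.6 and 53.6 FPKM) had all YOD1 libraries below all controls, and Krt8 (26.4 and 34.3 FPKM) and Krt18 (528 and 681 FPKM) had them above. None of the 9 passed the limma test, and the other 5 overlapped. The proximal tubule genes Slc34a1 and Cubn were near 0. Aqp1 (means 19.3 and 21.2 FPKM) and Lrp2 (3.60 and 2.75 FPKM), also genes of that segment, were expressed. The part of these markers in the results was not tested. The protocol text names an adipose type as the RNA source, unlike the cell line of the labels. Of 8 adipocyte markers, 7 were found and none reached the test. Their levels summed to 0.762 to 1.07 FPKM in the controls and 0.516 to 1.53 FPKM in the YOD1 libraries. The rRNA-derived share of summed FPKM was 0.473% to 0.867% among controls and 2.30% to 4.12% among YOD1 libraries. Relative to the control mean, the median gene stood at -0.06, -0.04 and -0.18 on the log2 scale in YOD1 libraries 1, 2 and 3, and the part of these shifts in the results below was not tested.

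The lowest fold changes were those of Fasn (-1.72), Elovl6 (-1.48), Lpin1 (-1.23) and Scd2 (-1.19), while the triglyceride-forming enzymes Dgat1 (0.02) and Dgat2 (0.31) were above 0. Of the 40 tested genes, 34 had a fold change below 0, with a median of -0.32, against 7307 of 11483 genes and a median of -0.10 over all tested genes. None of the 40 passed the limma test over all genes, and the lowest adjusted p was 0.0627. At an unadjusted p under 0.05, 15 of the 40 were lower and 0 higher, where 13.0% of all tested genes were lower and 7.87% higher. The 3 YOD1 libraries lay below all 3 controls for 20 of the 40 genes, against 19.1% of all tested genes, and above them for 1 gene, against 9.77%. These counts describe the genes, which share trends across libraries, and are no test of the pathway.

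**Figure D1:**
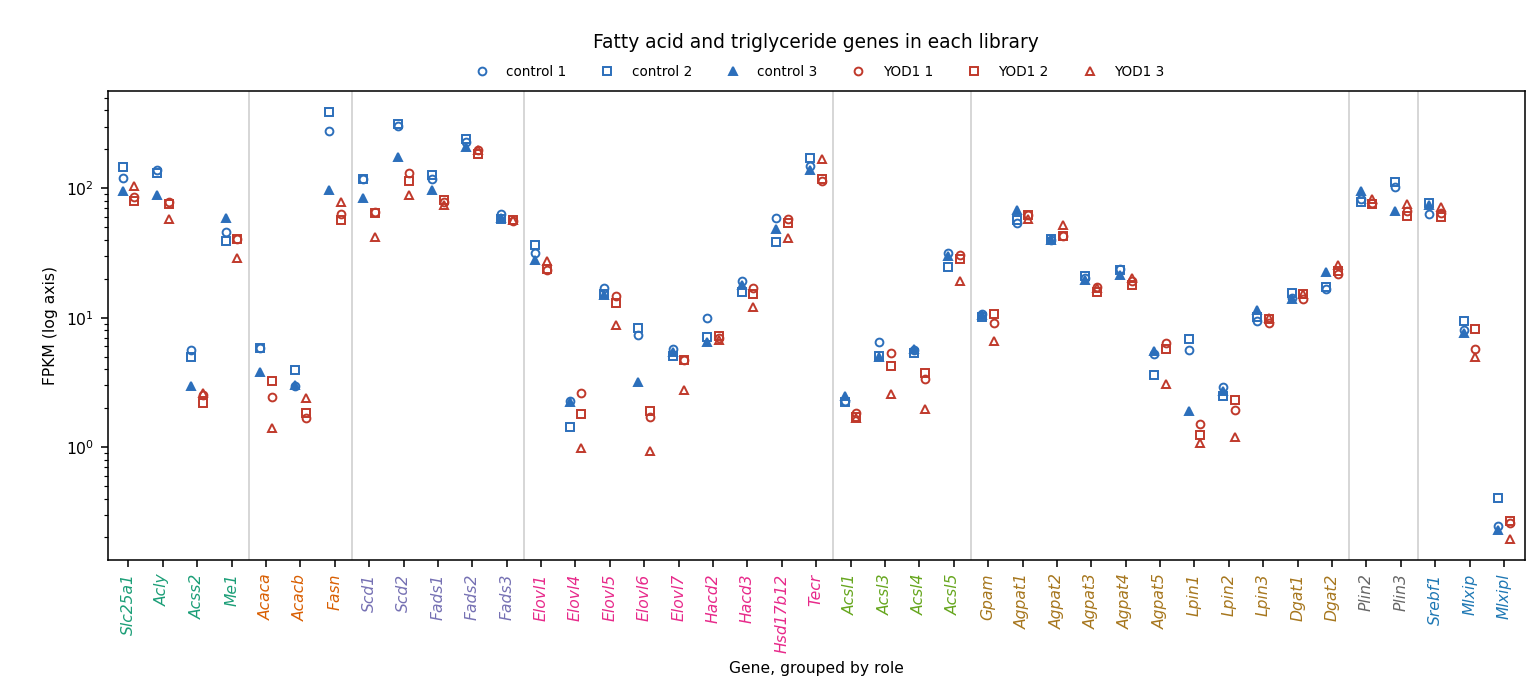
FPKM (log axis) of all 41 genes in each of the 6 libraries, with controls in blue, YOD1 libraries in red, control 3 as filled triangles, and genes grouped and coloured by role from acetyl-CoA supply (left) to transcription factors (right). Fasn, Scd2, Elovl6 and Lpin1 show the YOD1 libraries below all controls, with control 3 nearest to them, while Dgat1, Plin2 and Srebf1 overlap.

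**Figure D2:**
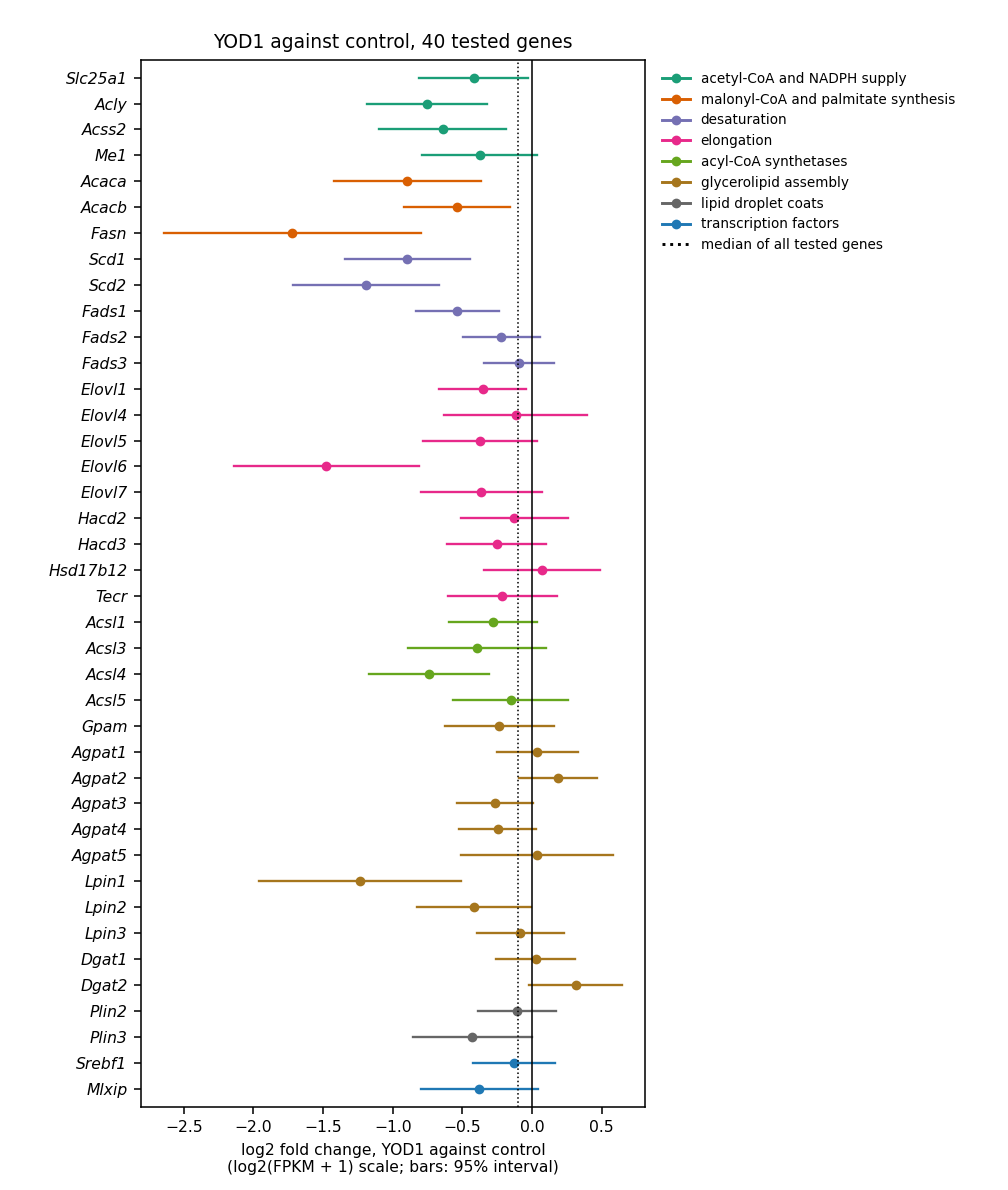
Log2 fold change of YOD1 against control on the log2(FPKM + 1) scale for the 40 tested genes, with points for the estimate, bars for the 95% interval of limma, colours for roles, a solid line at 0 and a dotted line at the median of all tested genes (-0.10). Fasn, Elovl6, Lpin1 and Scd2 lie farthest to the left, between -1.72 and -1.19, and Dgat2 lies farthest to the right at 0.31.

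Sequence upstream of the start site is shown for 2 of the genes with a listed promoter window. They have the lowest p among those with a CCAAT box in the 250 bases before the start. This box is the site of NF-Y, a factor known to act beside SREBP at lipogenic promoters. Both windows end at the base before the annotated start, come from RefSeq (build GRCm38.p6, matched by symbol), and have CCAAT, or its reverse complement ATTGG, in capitals. Fasn lies on the minus strand at chr11:120824548-120824797 and Acacb on the plus strand at chr5:114165268-114165517.
Fasn: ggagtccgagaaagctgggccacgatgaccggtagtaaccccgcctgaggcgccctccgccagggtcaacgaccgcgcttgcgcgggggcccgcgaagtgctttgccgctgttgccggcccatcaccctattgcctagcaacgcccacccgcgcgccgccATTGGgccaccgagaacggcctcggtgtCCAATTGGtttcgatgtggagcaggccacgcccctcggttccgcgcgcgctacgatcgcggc
Acacb: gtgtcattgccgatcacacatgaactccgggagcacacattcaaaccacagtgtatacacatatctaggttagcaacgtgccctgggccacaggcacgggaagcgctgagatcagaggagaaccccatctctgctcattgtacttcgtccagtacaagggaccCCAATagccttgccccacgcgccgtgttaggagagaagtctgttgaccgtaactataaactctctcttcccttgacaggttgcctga
The Fasn window held 1 CCAAT and 2 ATTGG, of which 1 pair overlaps in the palindrome, and the Acacb window held 1 CCAAT. Promoter windows of 300 bases (250 before to 50 after the start) were listed for 35 of the 41 genes, 46 windows in all, and were searched on both strands. No window was listed for Scd2, Scd1, Fads1, Dgat1, Dgat2 or Agpat5, so these were not searched. CCAAT was in 26 of the 46 windows (56.5%), against 37.4% of all 32851 promoters and 37.8% of those of tested genes. GGGCGG, the Sp1 site, was in 65.2% of the windows, against 35.7% of all promoters and 65.5% of those of tested genes. The E-box CACGTG was in 17.4%, against 7.15% and 10.5%, with Slc25a1, Plin2 and Elovl5 among its holders. A sterol response element spelled TCACNCCAC was in 2 windows (4.35%), those of Acsl1 and Mlxipl, against 1.24% of all promoters. Such matches are letters in a window and not shown to be sites.

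The supply of acetyl-CoA and NADPH rests on 4 of the genes, all with a fold change below 0. Acly, the ATP-citrate lyase that makes cytosolic acetyl-CoA, was at 139.6, 132 and 89.1 FPKM in the controls and at 77.8, 75.03 and 57.7 FPKM in the YOD1 libraries. The groups did not overlap, and control 3 was closest to the YOD1 libraries. Its fold change was -0.76 with an SE of 0.19 (limma adjusted p = 0.111). Acss2, which makes acetyl-CoA from acetate, was at 5.58, 4.95 and 2.97 FPKM in the controls and at 2.52, 2.19 and 2.63 FPKM in the YOD1 libraries. Again the groups did not overlap, with control 3 just above the highest YOD1 library (fold change -0.64, SE 0.20, limma adjusted p = 0.146). Acss2 exons overlap exons of 3 genes on the other strand in GENCODE M21, and the library strand is not stated, so its reads cannot be told apart from theirs.

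Slc25a1, the carrier that exports citrate from mitochondria, was at 121, 147 and 95.6 FPKM in the controls and at 85.3, 79.9 and 103.6 FPKM in the YOD1 libraries. YOD1 library 3 lay above control 3, so the groups overlapped (fold change -0.42, SE 0.17, limma adjusted p = 0.219). Me1, the malic enzyme that yields NADPH, was at 46.2, 38.9 and 58.7 FPKM in the controls and at 40.4, 40.3 and 29.1 FPKM in the YOD1 libraries. These overlapped as well, and control 3 was the highest control here, unlike for the other 3 genes (fold change -0.38, limma adjusted p = 0.268).

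The 3 genes of malonyl-CoA and palmitate synthesis had a median fold change of -0.90, the lowest of the roles. Fasn, the fatty acid synthase that builds palmitate, was at 275, 387 and 96.8 FPKM in the controls and at 63.2, 56.7 and 77.7 FPKM in the YOD1 libraries. The control mean was 253 ± 146 FPKM and the YOD1 mean 65.9 ± 10.7 FPKM (SD, n = 3 each), a ratio of 3.84. The YOD1 libraries were close to each other and below all controls, while controls 1 and 2 were far above control 3. The fold change was -1.72 with an SE of 0.41 (limma adjusted p = 0.0982), with a 95% interval from -2.64 to -0.80.

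Acaca, the main acetyl-CoA carboxylase that supplies malonyl-CoA for synthesis, was at 5.81, 5.85 and 3.80 FPKM in the controls and at 2.43, 3.22 and 1.41 FPKM in the YOD1 libraries. All 3 YOD1 libraries were below all controls (fold change -0.90, SE 0.23, limma adjusted p = 0.115). Acacb, the carboxylase at the mitochondrial surface whose malonyl-CoA restrains fatty acid oxidation, was at 2.94, 3.97 and 3.01 FPKM in the controls and at 1.67, 1.84 and 2.38 FPKM in the YOD1 libraries. It also showed no overlap, and here control 3 was not the lowest control (fold change -0.54, SE 0.17, limma adjusted p = 0.145). The control mean of Fasn was well above that of either carboxylase, at 253 FPKM against 5.16 FPKM for Acaca and 3.31 FPKM for Acacb.

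Among desaturases, the Scd pair and Fads1 had the larger differences. Scd2, a stearoyl-CoA desaturase that places the first double bond in saturated fatty acids, was at 301, 312 and 175 FPKM in the controls and at 132, 115 and 89.5 FPKM in the YOD1 libraries. All YOD1 libraries were below all controls, and the ratio of the control to the YOD1 mean was 2.35. Its fold change of -1.19 with an SE of 0.23 had the lowest p of the pathway (limma adjusted p = 0.0627). Scd1, its paralog on the same chromosome, was at 118.0, 118.3 and 83.4 FPKM in the controls and at 65.01, 64.3 and 42.2 FPKM in the YOD1 libraries. The groups did not overlap and the libraries kept the order of Scd2 in that control 3 was the lowest control and YOD1 library 3 the lowest of all (fold change -0.90, SE 0.20, limma adjusted p = 0.0874). Reads of the Scd genes may be shared between close copies, so the split between them is uncertain.

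Fads1, the delta-5 desaturase of polyunsaturated fatty acids, was at 118.5, 126 and 96.9 FPKM in the controls and at 77.8, 80.9 and 74.3 FPKM in the YOD1 libraries. The YOD1 libraries were tightly grouped below the controls (fold change -0.54, SE 0.13, limma adjusted p = 0.105). Fads2, the delta-6 desaturase, was at 227, 241 and 210.3 FPKM in the controls and at 199, 185 and 197 FPKM in the YOD1 libraries. It too had no overlap, but with a small gap (fold change -0.22, 95% interval -0.50 to 0.06, limma adjusted p = 0.315). Fads3, a related desaturase, had means of 60.2 and 56.2 FPKM and a fold change of -0.10 (limma adjusted p = 0.633), which turned to 0.01 with median-ratio scaling.

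Elongation is carried out by ELOVL enzymes, which choose the substrate, and by 3 further steps that all chain lengths share. Elovl6, which extends palmitate to stearate, was at 7.36, 8.32 and 3.19 FPKM in the controls and at 1.71, 1.88 and 0.935 FPKM in the YOD1 libraries. The groups did not overlap, control 3 lay between the other controls and the YOD1 libraries, and the ratio of means was 4.17, the widest of the pathway. The fold change was -1.48 with an SE of 0.30 (limma adjusted p = 0.0678). Elovl6 exons overlap those of a predicted gene on the other strand.

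The other elongases differed less. Elovl1, which makes very long saturated chains, was at 31.6, 36.5 and 28.1 FPKM in the controls and at 23.3, 23.7 and 27.4 FPKM in the YOD1 libraries. The YOD1 libraries were lower, with YOD1 library 3 close to control 3 (fold change -0.35, limma adjusted p = 0.203), and Elovl1 exons overlap those of Cdc20 on the other strand. Elovl5, which extends polyunsaturated fatty acids, was at 17.0, 15.3 and 15.03 FPKM in the controls and at 14.7, 13.0 and 8.85 FPKM in the YOD1 libraries. The groups did not overlap, with YOD1 library 1 just below control 3 (fold change -0.37, limma adjusted p = 0.270). Elovl7 (means 5.39 and 4.06 FPKM) also had no overlap, and Elovl4 (1.97 and 1.80 FPKM) did. Of the shared steps, the reductase Hsd17b12 (48.7 and 51.01 FPKM), the dehydratases Hacd2 (7.82 and 6.97 FPKM) and Hacd3 (17.7 and 14.8 FPKM), and the final reductase Tecr (153 and 133 FPKM) all overlapped between the groups, with fold changes from -0.26 to 0.07.

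Long-chain acyl-CoA synthetases activate fatty acids for all later uses. Acsl4, which prefers arachidonate and other polyunsaturated fatty acids, was at 5.58, 5.37 and 5.72 FPKM in the controls and at 3.33, 3.70 and 1.97 FPKM in the YOD1 libraries. The controls lay within a narrow range, control 3 the highest of them, and all YOD1 libraries were below it (fold change -0.74, SE 0.19, limma adjusted p = 0.115). Acsl3, an isoform of the endoplasmic reticulum and lipid droplets, was at 6.45, 5.07 and 4.94 FPKM in the controls and at 5.36, 4.20 and 2.57 FPKM in the YOD1 libraries. These overlapped, since YOD1 library 1 was above controls 2 and 3 (fold change -0.40, limma adjusted p = 0.317, or -0.17 without YOD1 library 3). Acsl1 (2.33 and 1.74 FPKM) had no overlap and Acsl5 (28.8 and 26.1 FPKM) did, with fold changes of -0.28 and -0.15, the latter at 0.04 without YOD1 library 3.

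Glycerolipid assembly joins acyl chains to glycerol 3-phosphate, and among its 11 genes the median fold change was -0.09, or 0.02 with median-ratio scaling. Lpin1, a lipin that turns phosphatidate into diacylglycerol and can also act as a coregulator in the nucleus, stood apart from the rest. It was at 5.65, 6.81 and 1.89 FPKM in the controls and at 1.50, 1.24 and 1.07 FPKM in the YOD1 libraries. Control 3 was nearer to the YOD1 libraries than to the other controls, though the groups did not overlap (ratio of means 3.77, fold change -1.23, SE 0.32, limma adjusted p = 0.115). Lpin2 was at 2.91, 2.47 and 2.72 FPKM in the controls and at 1.94, 2.30 and 1.19 FPKM in the YOD1 libraries. The groups did not overlap and control 3 was within the range of the other controls (fold change -0.41, limma adjusted p = 0.237). Lpin3 (10.3 and 9.67 FPKM) overlapped, with a fold change of -0.09, or 0.02 with median-ratio scaling.

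Gpam, the mitochondrial acyltransferase that starts the pathway, was at 10.6, 10.1 and 10.5 FPKM in the controls and at 9.08, 10.7 and 6.63 FPKM in the YOD1 libraries. The YOD1 libraries spread on both sides of the controls (fold change -0.24, 95% interval -0.63 to 0.16, limma adjusted p = 0.438). Agpat2, which adds the second acyl chain, was at 39.5, 40.4 and 40.1 FPKM in the controls and at 42.8, 42.8 and 52.1 FPKM in the YOD1 libraries. It was the 1 gene of the 40 with all YOD1 libraries above all controls (fold change 0.19, 95% interval -0.09 to 0.47, limma adjusted p = 0.389), and its exons overlap those of Egfl7 on the other strand. Agpat3 (20.3 and 16.7 FPKM) and Agpat4 (22.9 and 19.1 FPKM) had all YOD1 libraries below all controls, with fold changes of -0.27 and -0.25 and limma adjusted p of 0.244 and 0.275. Agpat1 (59.4 and 60.8 FPKM) and Agpat5 (4.76 and 5.02 FPKM) overlapped, with fold changes of 0.04 and 0.03 whose sign changed between settings. For Agpat5 it ran from -0.13 without YOD1 library 1 to 0.30 without YOD1 library 3, and for Agpat1 from -0.03 without control 1 to 0.14 without control 3.

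The last step, from diacylglycerol to triglyceride, has 2 unrelated enzymes. Dgat1 was at 14.2, 15.4 and 13.9 FPKM in the controls and at 13.8, 15.2 and 15.3 FPKM in the YOD1 libraries. The groups overlapped fully, and the fold change was 0.02 with a 95% interval from -0.26 to 0.31 (limma adjusted p = 0.925), with a sign that changed between settings. Dgat2 was at 16.6, 17.3 and 22.5 FPKM in the controls and at 21.8, 22.9 and 25.7 FPKM in the YOD1 libraries. Control 3 lay among the YOD1 libraries and above the other controls (fold change 0.31, SE 0.15, limma adjusted p = 0.264). Its 95% interval ran from -0.02 to 0.65, so a fold change as low as that of Fasn, Elovl6, Lpin1 or Scd2 lay outside it, though the difference between genes was not tested.

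Of the lipid droplet coats, Plin2, which coats droplets in most cells and is held stable by stored lipid, was at 82.3, 77.8 and 94.9 FPKM in the controls and at 77.4, 75.1 and 82.7 FPKM in the YOD1 libraries. The groups overlapped (fold change -0.11, 95% interval -0.39 to 0.17, limma adjusted p = 0.618). Plin3, a coat protein that exchanges with the cytosol, was at 102, 112 and 67.3 FPKM in the controls and at 66.7, 60.98 and 76.3 FPKM in the YOD1 libraries. Controls 1 and 2 were above all other libraries and control 3 was within the range of the YOD1 libraries (fold change -0.43, limma adjusted p = 0.238).

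Of the 3 transcription factors, 2 reached the test. Srebf1 was at 63.7, 77.3 and 74.8 FPKM in the controls and at 64.9, 60.1 and 72.2 FPKM in the YOD1 libraries. The groups overlapped, and control 3 was not low among the controls (fold change -0.13, 95% interval -0.42 to 0.17, limma adjusted p = 0.586). SREBP1 acts after cleavage of its precursor, which transcript levels do not measure, and Srebf1 exons overlap those of Rai1 on the other strand. Mlxip, the glucose-sensing factor MondoA, had means of 8.35 and 6.29 FPKM and overlapping groups (fold change -0.38, limma adjusted p = 0.272). Its relative Mlxipl, the factor ChREBP that drives lipogenic genes when glucose is plentiful, was at 0.247, 0.406 and 0.229 FPKM in the controls and at 0.260, 0.270 and 0.196 FPKM in the YOD1 libraries, too low to test.

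The order of the libraries was shared by many of these genes. Among the 15 genes with an unadjusted p under 0.05, control 3 was the lowest control for 12, and among the 40 tested genes for 21, where this held for 30.6% of all tested genes. YOD1 library 3 was the lowest of the 6 libraries for 20 of the 40 genes, not far from the 42.5% over all tested genes. Relative to the control mean, the median of the 40 genes was 0.06, 0.02 and -0.06 in controls 1, 2 and 3 and -0.22, -0.27 and -0.51 in YOD1 libraries 1, 2 and 3. The summed level of the 41 genes was 2228, 2397 and 1744 FPKM in the controls and 1505, 1449 and 1476 FPKM in the YOD1 libraries.

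Several smaller differences depended on 1 library. Without YOD1 library 3, the fold change was -0.17 for Elovl5, -0.16 for Elovl7, -0.12 for Hacd3, -0.07 for Gpam, -0.24 for Lpin2, -0.25 for Mlxip and 0.10 for Agpat2, and it was 0.11 for Elovl4, above 0. Me1 stood at -0.22 without either control 3 or YOD1 library 3. Slc25a1 stood at -0.27 without control 2, Plin3 at -0.65 and Plin2 at -0.03 without control 3, and Hacd2 at 0.04 without control 1.

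**Figure D3:**
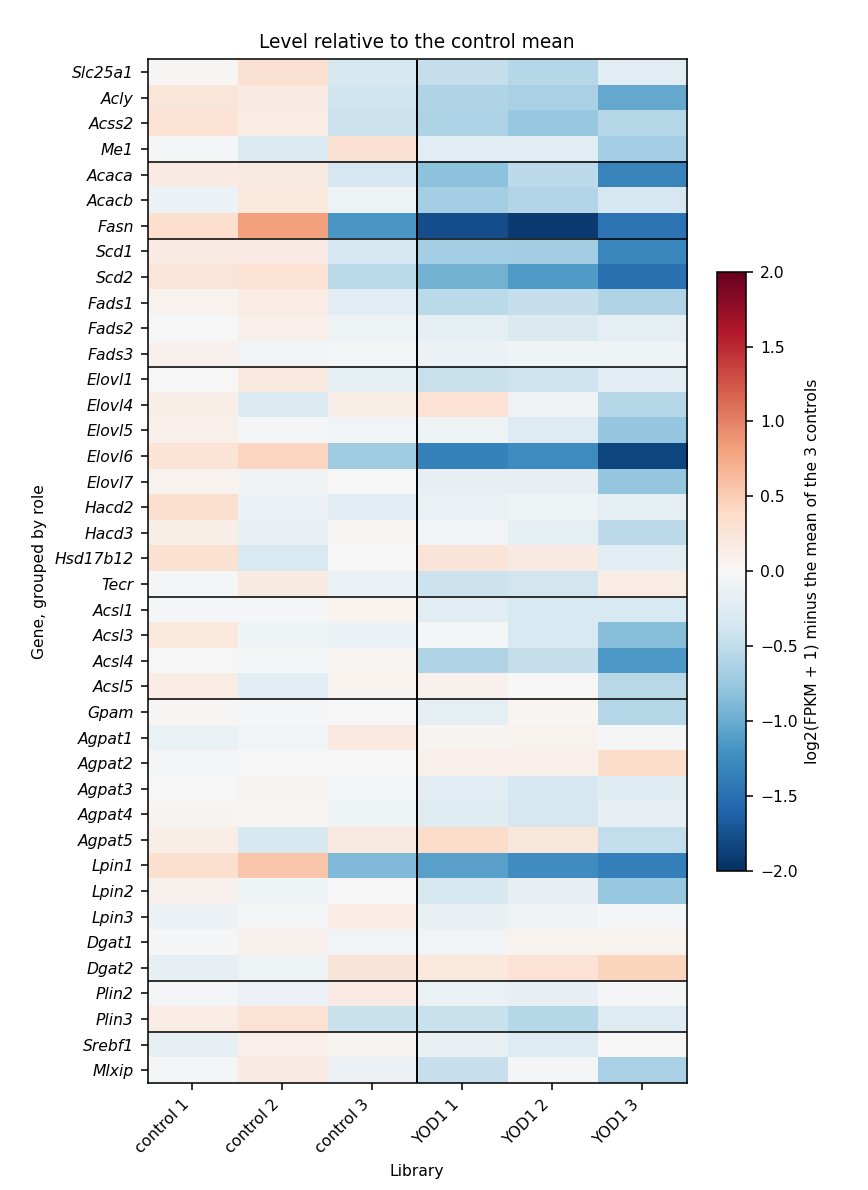
Heat map of log2(FPKM + 1) minus the mean of the 3 controls for the 40 tested genes (rows, grouped by role) in the 6 libraries (columns), blue for lower and red for higher. Control 3 shares the blue of the YOD1 libraries for Fasn, Elovl6, Lpin1 and Scd2 but not for Acsl4 or Me1, and for Dgat2 it shares their red.

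Without control 3, 7 of the 40 genes passed the limma test, and all 7 were lower, where 97 of all tested genes (0.845%) were called lower and 145 (1.26%) higher. They were Fasn (fold change -2.30, limma adjusted p = 0.00557), Lpin1 (-1.67, 0.00981), Elovl6 (-1.84, 0.0126), Scd2 (-1.46, 0.0131), Acly (-0.96, 0.0320), Scd1 (-1.06, 0.0421) and Fads1 (-0.65, 0.0459). Acss2, Plin3 and Acaca came next with limma adjusted p of 0.0523, 0.0688 and 0.0783, while Acsl4 stood at 0.153. Leaving out any other library gave 0 calls among the 40. Control 3 was the lowest control for all 7 called genes. Its removal therefore widened their gap by construction, and those calls are no separate support. With all libraries, median-ratio scaling gave 1 call among them, where 0.0784% of all genes were called lower, and a replicate block gave 3, where 0.0697% were. The authors' deposited table marks 5 of the genes as significantly lower, namely Elovl6 (q = 2.35e-07), Lpin1 (q = 1.77e-05), Scd2 (q = 0.000179), Acaca (q = 0.00444) and Fasn (q = 0.0350), where 0.333% of its 28789 genes are marked lower. In the authors' deposited table Scd1 (q = 0.00764), Acsl4 (q = 0.0174) and Acly (q = 0.0375) also have q under 0.05, without the mark, where 0.632% of genes are lower at that q. Both shares are over all 28789 genes, of which 11483 entered the limma test, whereas 40 of the 41 genes here did. They are thus no like background for these genes. The sources used here do not name the test behind those q-values.

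Transcript length moved with the fold changes. Over all tested genes, which are not independent replicates, the Spearman correlation of fold change with the longest annotated transcript was -0.40, and over the 40 genes it was -0.52. The 9 genes with an unadjusted p under 0.01 had transcripts of 3460 to 10050 bp, against a median of 3666 bp over the 40 and 3018 bp over all tested genes. With the length trend of each library removed, the fold changes were -1.50 for Fasn, -1.31 for Elovl6, -1.08 for Lpin1, -1.04 for Scd2, -0.77 for Scd1, -0.68 for Acaca and -0.65 for Acly. The median of the 40 genes was then -0.28, against -0.09 over all genes, and none passed the limma test. Of the 40, 37 were below 0, against 7312 of 11386 genes. Over the 40 genes the correlation with length was still -0.22 after this removal, and its source was not tested. Acacb moved from -0.54 to -0.32, Acsl1 from -0.28 to -0.12, Gpam from -0.24 to -0.06 and Agpat3 from -0.27 to -0.10, while the short transcript Slc25a1 moved from -0.42 to -0.53.

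**Figure D4:**
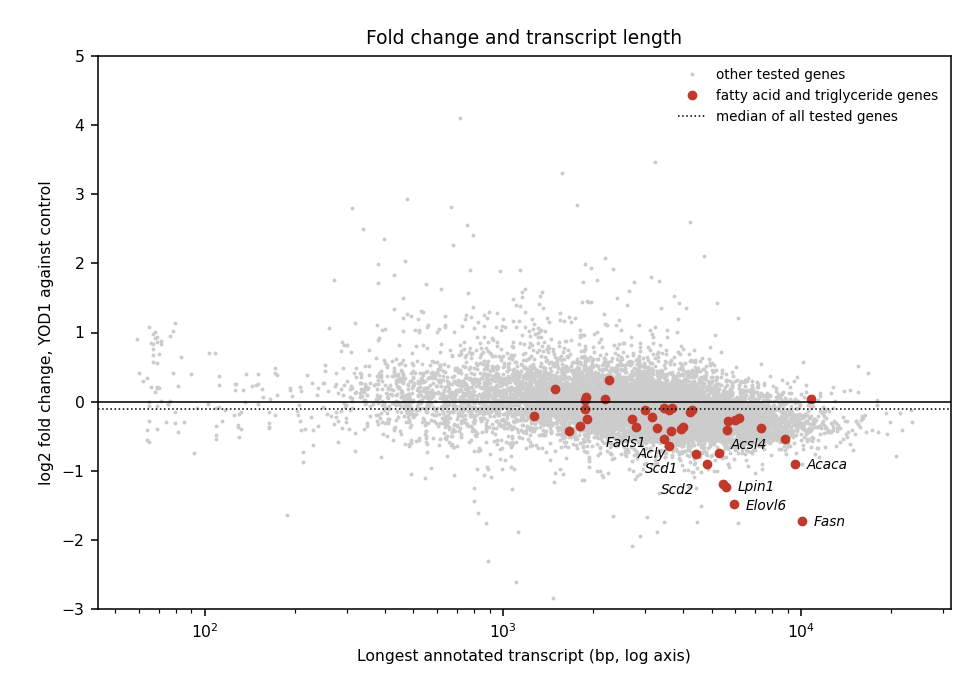
Log2 fold change of YOD1 against control (log2(FPKM + 1) scale) against the longest annotated transcript (bp, log axis) for tested genes in grey and the 40 pathway genes in red, with a solid line at 0 and a dotted line at the median of all tested genes. The grey cloud slopes downward with length, and Fasn, Elovl6, Lpin1 and Scd2, at -1.72 to -1.19, lie at its lower edge.

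Genes around the pathway were described by lists. Of 14 tested genes that control or assist SREBP, 4 had an unadjusted p under 0.05, all lower, and none passed over all genes by limma. At that threshold 13.0% of all tested genes were lower. Insig1, which holds SREBP in the endoplasmic reticulum and is itself a SREBP target, was at 103, 69.2 and 14.1 FPKM in the controls and at 14.5, 9.95 and 7.56 FPKM in the YOD1 libraries. Control 3 was within the range of the YOD1 libraries (fold change -2.08, SE 0.58, limma adjusted p = 0.124), and without it the fold change was -2.92 (limma adjusted p = 0.00717). Srebf2 had means of 133 and 99.0 FPKM without overlap (fold change -0.43, limma adjusted p = 0.126). Scap, the escort of SREBP (19.1 and 21.5 FPKM), and Mid1ip1, an activator of acetyl-CoA carboxylase (49.5 and 42.9 FPKM), overlapped.

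Of 7 tested NADPH genes, Pgd (104 and 75.4 FPKM) and Idh1 (11.6 and 6.39 FPKM) lay lower and Pgls (9.69 and 17.8 FPKM) higher at an unadjusted p under 0.05, with limma adjusted p from 0.0702 to 0.1204. Of 10 tested genes of lipolysis and fatty acid uptake, 4 were lower and 1 higher at that threshold and none passed over all genes by limma. The fatty acid transport proteins Slc27a4 (42.6 and 29.2 FPKM) and Slc27a1 (16.9 and 12.1 FPKM) had all YOD1 libraries below all controls, and the fatty acid binding protein Fabp5 (11.1 and 17.5 FPKM) had them above. Of 10 further tested genes of chain synthesis, acyl transfer and droplets, 2 were lower and 0 higher at that threshold and none passed by limma. The median fold change of these 10 was -0.01. The 2 lower genes act on phospholipids, the lysocardiolipin acyltransferase Lclat1 (6.53 and 4.60 FPKM) and the lysophosphatidylcholine acyltransferase Lpcat3 (37.8 and 30.6 FPKM). Over all tested genes, 13.0% were lower and 7.87% higher at that threshold.

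Cholesterol synthesis and uptake, the other arm under SREBP control, had a wider gap and a stronger place for control 3. All 23 tested genes were below 0 with a median of -0.99, 18 had an unadjusted p under 0.05, and none passed the limma test with all libraries. At that unadjusted threshold 13.0% of all tested genes were lower. The median of the 23 genes in controls 1, 2 and 3 was 0.35, 0.25 and -0.69 relative to the control mean, and -0.80, -1.02 and -1.03 in YOD1 libraries 1, 2 and 3. Control 3 thus lay with the YOD1 libraries for the median cholesterol gene, but not for the median fatty acid and triglyceride gene, at -0.06. That list is mixed. By role, its control 3 median ran from -0.36 (acetyl-CoA and NADPH supply) and -0.34 (malonyl-CoA and palmitate synthesis) to 0.01 (glycerolipid assembly) and 0.05 (acyl-CoA synthetases). For Fasn, Lpin1, Elovl6 and Scd2, control 3 was at -1.16, -0.88, -0.72 and -0.54. Without control 3, 16 of the 23 cholesterol genes passed the limma test as lower, where 0.845% of all tested genes did. Such an omission widens the gap wherever control 3 is the lowest control. Dhcr7, the enzyme of the last step, went from -1.07 (limma adjusted p = 0.0783) to -1.35 (0.00981) without it, and Hmgcs1, the synthase of an early step, from -1.75 (0.0956) to -2.30 (0.00872). Genes of fatty acid oxidation, with 19 tested, had a median of -0.22, and 1 passed as lower, where 0.0348% of all tested genes did. This was Cpt1a, the carnitine palmitoyltransferase that malonyl-CoA inhibits, which fell from 19.9 ± 2.05 to 9.37 ± 1.04 FPKM (SD, n = 3 each, fold change -1.01, limma adjusted p = 0.0179). Control 3, at 19.4 FPKM, was within the other controls there, and Cpt1a no longer passed without control 1 (limma adjusted p = 0.0530), control 2 (0.105) or YOD1 library 1 (0.0559), or without the filter on low values (0.192). The differences between these lists were not tested.

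**Figure D5:**
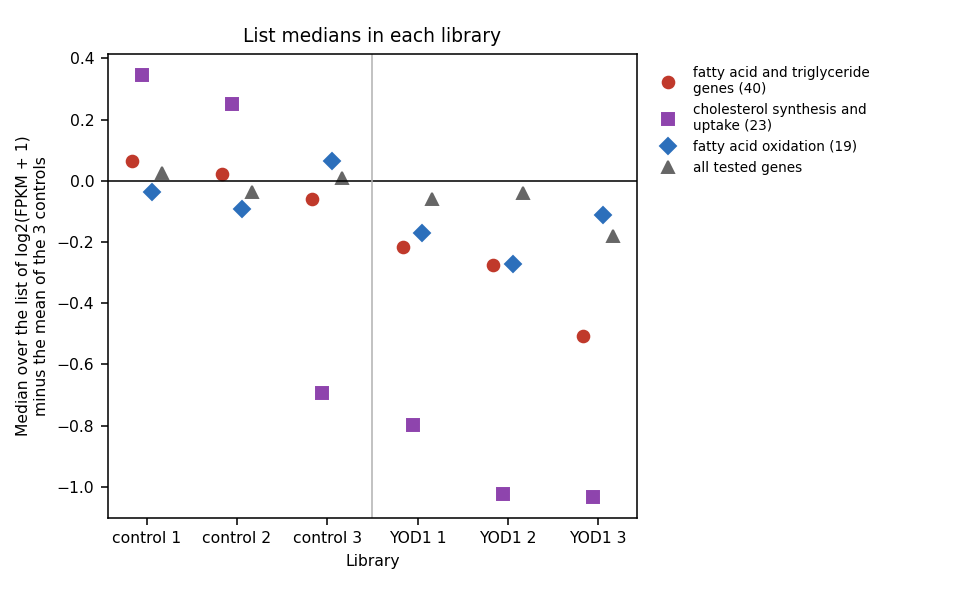
Median over each list of log2(FPKM + 1) minus the mean of the 3 controls, by library, for the 40 fatty acid and triglyceride genes, 23 cholesterol genes, 19 fatty acid oxidation genes and all tested genes. The cholesterol median is at -0.69 in control 3, near the YOD1 libraries, whereas the fatty acid and triglyceride median is at -0.06 there. The medians of the roles within that list, not drawn, range from -0.36 to 0.05 in control 3.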

How the data were processed

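Poly(A) RNA of 6 libraries was sequenced in paired ends, per the labels' protocols. The single table the authors deposited gives, per the file headers, FPKM by gene and library beside a fold ratio of the group means, log2 of that ratio, a p-value and a q-value. Build mm8 and the tools Bowtie 0.12.2, HISAT2 2.0 and StringTie 1.3.0 are listed in the submitters' processing notes, without roles. With FPKM only, the design's limma test on log2(FPKM + 1) was used in place of a count test. FPKM does not give read depth, which limits the precision of low genes by an unknown amount. The commonest ratio of values under 0.1 FPKM, shared by 3.28% to 4.80% of low genes, gave a rough depth relative to control 1 of 0.804 to 0.844 for YOD1 libraries and of 0.976 and 1.02 for controls 3 and 2. Columns of per-sample values left unused numbered 0.

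Genes that reached 1 FPKM in 3 or more libraries were tested with limma 3.58.1 in R 4.3.3 (moderated variances with an intensity trend). An exact permutation of 3 against 3 cannot go below p = 0.1, so none is reported. The test was checked on simulated data drawn independently for each gene, which do not hold the trends that genes share across these libraries. The 41 genes, the lists and the tests were chosen with earlier results of these data known. Values per library are given for genes with an unadjusted p under 0.05 and for genes chosen for their role, others by means. From each further list, up to 4 tested genes among those of lowest p were named, plus Insig1, Scap, Mid1ip1 and Cpt1a. Alternatives were no filter, a filter at 5 FPKM, a pseudocount of 0.1, median-ratio scaling, a common total without rRNA-derived genes, removal of the length trend (spline with 4 degrees of freedom, lengths from GENCODE M21 by transcript identifier for 99.2% of tested genes), no intensity trend, a replicate block, and leaving out every library singly. Exon overlaps came from the same annotation, of another build than mm8, so gene coordinates are not given. In it, 14 of the 41 genes overlap an exon on the other strand, and Scd2, Acsl3 and Srebf1 overlap Mir5114, Utp14b and Mir6922 on the same strand, whose reads strand would not separate. Numbers and plots were made with Python 3.11.15, numpy 2.4.6, pandas 2.3.3 and matplotlib 3.10.9.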

Additional observations from a re-analysis of the deposited data

How the results depend on the processing

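Over all genes, the 51 higher and 4 lower calls became 0 and 0 without a filter (1411 higher and 2016 lower at an unadjusted p under 0.05 in limma), 160 and 9 with median-ratio scaling, and ranged from 17 to 145 and from 1 to 97 when 1 library was left out. Those counts were 30 and 1 without control 1, 17 and 2 without control 2, 145 and 97 without control 3, 40 and 1 without YOD1 library 1, and 107 and 25 without YOD1 library 3. Higher calls were 28 with a common total without rRNA-derived genes and 15 with the length trend removed. Of the fatty acid and triglyceride genes, 0 were called lower by limma with the settings of the report, 1 with median-ratio scaling (Elovl6, adjusted p = 0.0445), and 0 to 7 when 1 library was left out, the 7 without control 3. Their median stayed within the spread between replicates (SD 0.117), from -0.37 (pseudocount 0.1) to -0.23 (median-ratio scaling), in every alternative run. Dgat1 turned from 0.02 to -0.025 with the common total and -0.069 with the length trend removed, and ranged from -0.0020 (without control 3) to 0.068 when 1 library was left out. Median-ratio scaling turned Fads3 to 0.014 and Lpin3 to 0.016, the common total turned Agpat1 to -0.014 and Agpat5 to -0.0071, and removal of the length trend turned Hsd17b12 to -0.020 and Agpat1 to -0.028. With 1 library left out, the sign also changed for Elovl4 (-0.32 to 0.11), Hacd2 (-0.23 to 0.036), Hsd17b12 (-0.082 to 0.22), Acsl5 (-0.28 to 0.044), Agpat1 (-0.031 to 0.14) and Agpat5 (-0.13 to 0.30). Why these values moved was not tested.

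Same-numbered libraries 1, 2 and 3 had correlations of deviations of 0.30, -0.12 and -0.11. The highest value was that of control 2 with YOD1 library 3 (0.34). With 3 libraries per group these correlations depend on each other, so they cannot settle whether the numbers mark pairs. With the replicate block, calls were 33 higher and 8 lower, and 3 of the 40 genes were called lower: Scd2 (limma adjusted p = 0.0277), Elovl6 (0.0363) and Scd1 (0.0405).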

Other observations

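Pnpla3 and Scd3, both outside the test for low values, were chosen here after their values were seen. Pnpla3, a lipase-like protein of lipid droplets, was at 2.10, 1.26 and 0.886 FPKM in the controls and at 0.673, 0.310 and 0.320 FPKM in the YOD1 libraries. Scd3, a further stearoyl-CoA desaturase, was at 0.591, 1.08 and 0.864 FPKM in the controls and at 0.117, 0.0258 and 0.0711 FPKM in the YOD1 libraries. Neither had overlapping groups, and control 3 was the lowest control for Pnpla3 but not for Scd3. Other untested genes of the same lists went both ways. G0s2 (means 0.205 and 0.980 FPKM), Acsl6 and Cidec had all YOD1 libraries above all controls. Hacd4, Cideb and Slc27a3 had them below, and the rest overlapped. The split of reads between Scd3 and its close copies Scd1 and Scd2 is uncertain.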
